A study of Mus musculus with 17 samples.

Results

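Promoter regions of intermediate width make up the bulk of the histone H3 lysine 9 acetylation (H3K9ac) signal at gene starts in these mouse livers. They were defined as deposited H3K9ac regions that were at least 1000 and under 4000 bases long and whose middle lay at most 1000 bases from the nearest annotated start site. Of 57499 regions, 9169 (15.9%) met both limits. They were 66.3% of the 13830 regions within that distance, beside 4423 shorter ones (short promoter regions, under 1000 bases) and 238 longer ones (broad promoter regions, 4000 bases or more). The length of a region depends on where the mark was called, so width and distance describe the choice and are not findings.

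H3K9ac was measured by ChIP-seq and RNA by RNA-seq in liver tissue of C57BL/6 mice that were fed one of 2 diets for 10 weeks. Fat gave 60% of kcal in the high-fat diet (HFD) and 18% of kcal in the control diet (CD). H3K9ac had 3 libraries per diet, lettered A, C and D for CD and A, B and D for HFD. RNA had 4 libraries per diet, lettered A to D. The labels give neither the sex and age of the mice nor the hour at which livers were taken, and do not say whether a letter marks the same liver in both assays. If libraries share livers, p-values measure only the spread between these libraries. In whole liver, a change in the number of cells of one type and a change per cell cannot be told apart.

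H3K9ac is an acetyl group placed on histone H3 by acetyltransferases such as Kat2a and Kat2b and removed by deacetylases. It is known for marking the nucleosomes that flank the start sites of active genes, and its loss and gain follow the daily cycle of many liver genes. Most genes that all cells need have start sites in CG-rich sequence with a compact acetylated block, while cell-identity genes often carry wider acetylated domains.

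Sequences before the start sites of 9 of these regions are given as examples and do not stand for the class. They were chosen after their values were known: the clock genes Per3, Tef, Ciart, Arntl and Npas2 and the sterol enzyme Cyp51 had different H3K9ac between the diets, Wdr26 was among the regions with the densest mark, and Fga, which encodes a fibrinogen chain, has a start in CG-poor sequence with little mark. Each line gives the 200 bases before the start, 5′ to 3′, from RefSeq on GRCm38.p6. Capitals mark motifs read on either strand: TATAAA as the TATA box, CCAAT as the box that NF-Y is known to bind, GGGCGG as the GC box of Sp factors, CACGTG as the E-box, CCGGAAG as an ETS family motif and TTATGTAA as the D-box.
Per3, chr4:151044666-151044865, minus strand: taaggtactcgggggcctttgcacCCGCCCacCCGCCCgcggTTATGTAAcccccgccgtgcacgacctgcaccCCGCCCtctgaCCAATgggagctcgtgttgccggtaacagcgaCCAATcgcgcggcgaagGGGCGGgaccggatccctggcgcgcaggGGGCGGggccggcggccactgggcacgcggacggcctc
Tef, first start, chr15:81802473-81802672, plus strand: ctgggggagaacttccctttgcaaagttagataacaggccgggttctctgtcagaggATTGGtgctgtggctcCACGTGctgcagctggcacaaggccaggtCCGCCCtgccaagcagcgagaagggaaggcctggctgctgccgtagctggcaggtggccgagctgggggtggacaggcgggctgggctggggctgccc
Tef, second start, chr15:81811214-81811413, plus strand: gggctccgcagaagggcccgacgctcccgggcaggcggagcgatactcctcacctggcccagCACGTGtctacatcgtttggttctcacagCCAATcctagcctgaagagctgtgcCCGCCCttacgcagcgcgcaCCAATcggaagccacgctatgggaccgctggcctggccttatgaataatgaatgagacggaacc
Ciart, chr3:95882229-95882428, minus strand: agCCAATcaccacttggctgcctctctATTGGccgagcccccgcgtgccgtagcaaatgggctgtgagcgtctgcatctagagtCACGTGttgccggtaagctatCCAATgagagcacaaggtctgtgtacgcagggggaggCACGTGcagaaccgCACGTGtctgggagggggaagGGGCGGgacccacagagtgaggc
Arntl, chr7:113207265-113207464, plus strand: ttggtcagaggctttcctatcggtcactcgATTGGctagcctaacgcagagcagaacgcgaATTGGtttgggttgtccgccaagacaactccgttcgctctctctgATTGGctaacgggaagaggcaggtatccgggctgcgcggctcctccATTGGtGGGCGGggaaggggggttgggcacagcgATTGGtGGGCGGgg
Npas2, chr1:39194072-39194271, plus strand: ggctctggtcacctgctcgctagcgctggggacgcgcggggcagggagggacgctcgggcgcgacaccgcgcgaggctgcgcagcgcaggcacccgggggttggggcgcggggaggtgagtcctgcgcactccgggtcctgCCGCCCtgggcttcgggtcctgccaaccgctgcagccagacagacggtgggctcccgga
Cyp51, chr5:4104698-4104897, minus strand: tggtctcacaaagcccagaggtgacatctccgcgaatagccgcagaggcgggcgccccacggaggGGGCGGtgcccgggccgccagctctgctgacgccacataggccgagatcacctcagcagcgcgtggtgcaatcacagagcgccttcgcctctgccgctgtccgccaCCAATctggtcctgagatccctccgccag
Wdr26, chr1:181211979-181212178, minus strand: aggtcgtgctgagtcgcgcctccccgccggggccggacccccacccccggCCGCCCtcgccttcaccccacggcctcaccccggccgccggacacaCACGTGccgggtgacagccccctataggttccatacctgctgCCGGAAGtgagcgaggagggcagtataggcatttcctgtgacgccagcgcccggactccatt
Fga, chr3:83025953-83026152, plus strand: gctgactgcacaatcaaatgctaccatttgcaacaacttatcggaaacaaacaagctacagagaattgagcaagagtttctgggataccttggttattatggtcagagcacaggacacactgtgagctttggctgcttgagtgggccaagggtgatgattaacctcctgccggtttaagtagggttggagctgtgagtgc
In these lines no capital motif overlapped another. CACGTG, the E-box that Clock-Arntl dimers are known to bind, stood in both Tef promoters, 3 times in that of Ciart and once in that of Wdr26, whose H3K9ac did not pass between the diets (adjusted p = 0.725). It was not in the 200 bases shown for Per3, Arntl or Npas2. Of the 32851 promoters in the table, 5.26% had CACGTG in the same 200 bases and 0.0548% had 3 or more copies. Arntl had CCAAT 5 times, as had 0.0913% of all promoters (at least 5), while 29.3% had it at least once. Per3 had TTATGTAA, a form of the D-box that Tef and Hlf are known to bind, 158 bases before the start. That motif was added after the values were seen, and 0.679% of promoters held it. GC content was 73% for Per3, 76% for Npas2 and 70.5% for Wdr26 but 47% for Fga, beside a median of 53% over the table. The start sites of 64.4% of the 9169 regions were in the table, under the 80% needed, so no motif or GC share over all of them is given. A match is a run of letters and does not show that a factor was bound.

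Total counts over all regions ran from 9255635 to 12149497 per H3K9ac library, and RNA counts from 31802893 to 37596560 per library. The library HFD D had the lowest H3K9ac total. Among the 300 medium regions that passed the test between the diets (adjusted p under 0.05 in edgeR), HFD D lay nearest to the CD libraries in 192, HFD A in 54 and HFD B in 54. Hepatocyte markers had the highest RNA sums of the cell types listed: the summed level of 15 markers was 129000 to 145000 CPM (counts scaled to a common library size) in CD and 144000 to 170000 in HFD, with 3 of the 15 higher in HFD past that threshold. These sums overlapped between the diets, and so did the marker sums of other liver cells. They were 187 to 265 CPM in CD and 159 to 340 in HFD for sinusoidal endothelium (12 genes), 232 to 338 and 179 to 474 for Kupffer cells and macrophages (13 of 14), and 310 to 366 and 234 to 462 for stellate cells (12). None of these 3 lists had a gene past the threshold. Higher in HFD were 11 of 12 endothelial, 11 of 13 Kupffer cell and macrophage and 4 of 12 stellate markers, and the rest were lower.

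Nearly all of the medium-width regions lay across a start site. Of the 9169, 9032 (98.5%) included the base of the nearest start, against 68.4% of short and 100% of broad promoter regions. The acetylated block reached farther into the gene than away from it, with a median of 983 bases downstream and 617 bases upstream of the start. Its middle lay downstream in 7103 regions (77.5%), at a median of 190 bases. The limit on distance sets part of this position. The median length was 1606 bases, with quartiles at 1294 and 2072.

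The 9169 regions covered 31.3% of all region bases and held between 61.6% and 63.9% of all region counts. In CD the share was 61.6% in A, 62.6% in C and 62.8% in D. In HFD it was 62.1% in A, 61.9% in B and 63.9% in D. The diets overlapped, and the difference of 0.284 percentage points had p = 0.8 in a two-sided exact permutation test of 3 against 3 libraries, which cannot give a p below 0.1. Its sign turned without CD A (-0.0991) and without HFD D (-0.359). Mean H3K9ac per kilobase had a median of 34.6 CPM per kb in medium regions. Short promoter regions had a median of 6.19 CPM per kb, broad ones 31.0 and regions away from start sites 4.56.

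**Figure D1:**
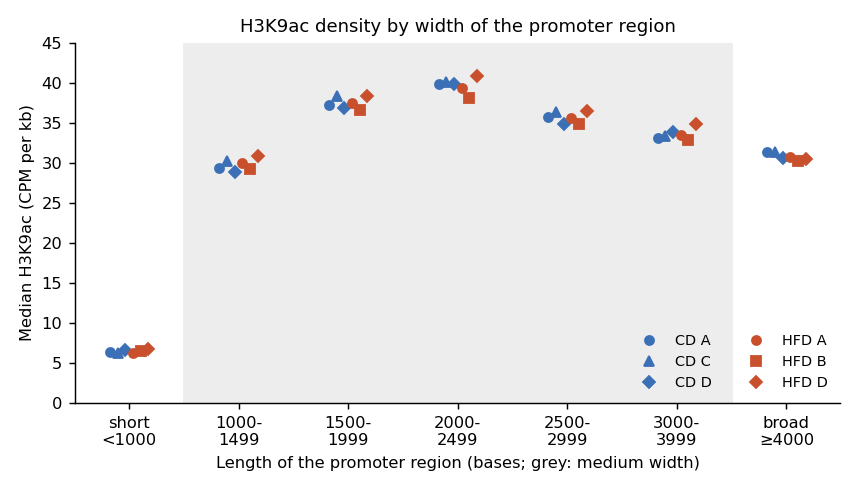
Median H3K9ac density (CPM per kb, y axis) of promoter regions by length class (x axis, bases), 1 point per library, with CD in blue, HFD in red and the letter of the library as the shape. In all 6 libraries the class of 2000 to under 2500 bases is the highest and the short class, near 6 CPM per kb, is far below the rest.

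Density did not grow steadily with width. The median was 29.7 CPM per kb in the 3863 regions of 1000 to under 1500 bases, 37.6 in the 2735 of 1500 to under 2000 and 39.6 in the 1454 of 2000 to under 2500. It was 35.9 in the 663 of 2500 to under 3000 and 33.7 in the 454 of 3000 to under 4000. The same order held in every library. At the lower length limit, where 385 regions lay within 50 bases inside and 368 within 50 outside, Hsd17b7 and Rdh16 (1000 bases each) had 22.5 and 21.9 CPM per kb. Chmp4c and Zfp956, 1 base shorter, had 14.9 and 20.4. At the upper limit, Mnt (3995 bases) and 8430408G22Rik (3998) had 44.5 and 26.4 CPM per kb, and Apeh (4004), just outside, had 23.6. At the distance limit, Kng2 and Fam43a, both 1000 bases off, had 8.26 and 28.1, and Eif4ebp2 and Fam19a2, both 1 base farther, had 59.3 and 3.43. Values on the 2 sides of each limit overlapped or lay close, except at the distance limit, where they spread widely on both sides.

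Among the densest regions, A730008H23Rik led with 206 CPM per kb over 1074 bases. Cpeb2, an mRNA-binding regulator of translation, had 159 CPM per kb, and so did Cep85l, a centrosomal protein. Wdr26, which acts in a ubiquitin ligase, had 144 CPM per kb, and so did Rnf169, a RING finger protein. None of these regions passed the diet threshold. Fga, whose RNA at 1670 RPKM was far above the median, had 5.3 CPM per kb of H3K9ac. The lowest regions were Mir7049 with 2.36, Gm5607 with 2.36 and Spn, a leukocyte surface protein, with 2.67 CPM per kb.

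A gene in the RNA table was the nearest gene of 8107 regions (88.4%), against 56.6% of short and 91.6% of broad promoter regions. The median RNA level of these genes was 6.07 RPKM (CPM per kilobase of gene length). For short promoter regions it was 3.31 and for broad ones 12.9. Within medium regions it was 4.87 in the narrowest class and 8.93 RPKM in the widest. When the 12334 genes of the RNA table were cut by level into 5 groups of equal size, the strongest promoter region was medium for 52.3% of genes in the lowest group, 62.7% in the next, 69.8% in the middle, 71.1% in the fourth and 66.0% in the highest. Broad regions were the strongest for 0.851% of the lowest group and 3.32% of the highest. A region carries the name of its nearest start only, so a gene that shares a divergent promoter can appear without one.

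The share of genes whose strongest promoter region was medium was taken for each gene group, beside 64.4% of all genes in the RNA table. Some groups also hold genes absent from the RNA table, so the bases differ. Of the 314 Zfp genes 282 were in it, and of the 54 Rab genes 45. It was so for 26 of 31 proteasome subunits, 55 of 78 cytosolic ribosomal proteins, 38 of 54 Rab GTPases, 18 of 26 histone acetyltransferases and deacetylases, and 13 of 19 stress genes of the endoplasmic reticulum. It was so for 54 of 88 respiratory chain subunits, 25 of 42 mitochondrial carriers, 37 of 77 mitochondrial ribosomal proteins and 157 of 314 zinc finger proteins of the Zfp family, of which 127 had a short one instead. Plasma proteins secreted by the liver had a lower share. Of 40, 10 had a medium region, 11 a short one, 4 a broad one and 15 none of their name within the distance limit. Among 18 immediate early genes, 7 had a medium and 9 a broad region, and among 25 hepatocyte transcription factors, 11 and 4. Marker genes of liver cell types were at 50% or less, with 6 of 15 for hepatocytes, 3 of 12 for endothelium, 3 of 13 for Kupffer cells and macrophages, 5 of 12 for stellate cells, 3 of 6 for cholangiocytes and 0 of 5 for lymphocytes. No test was made of these shares. On chromosome X, 210 of 602 regions (34.9%) were of this class, against 14.3% to 20.3% on the autosomes and 1 of 14 on Y.

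**Figure D2:**
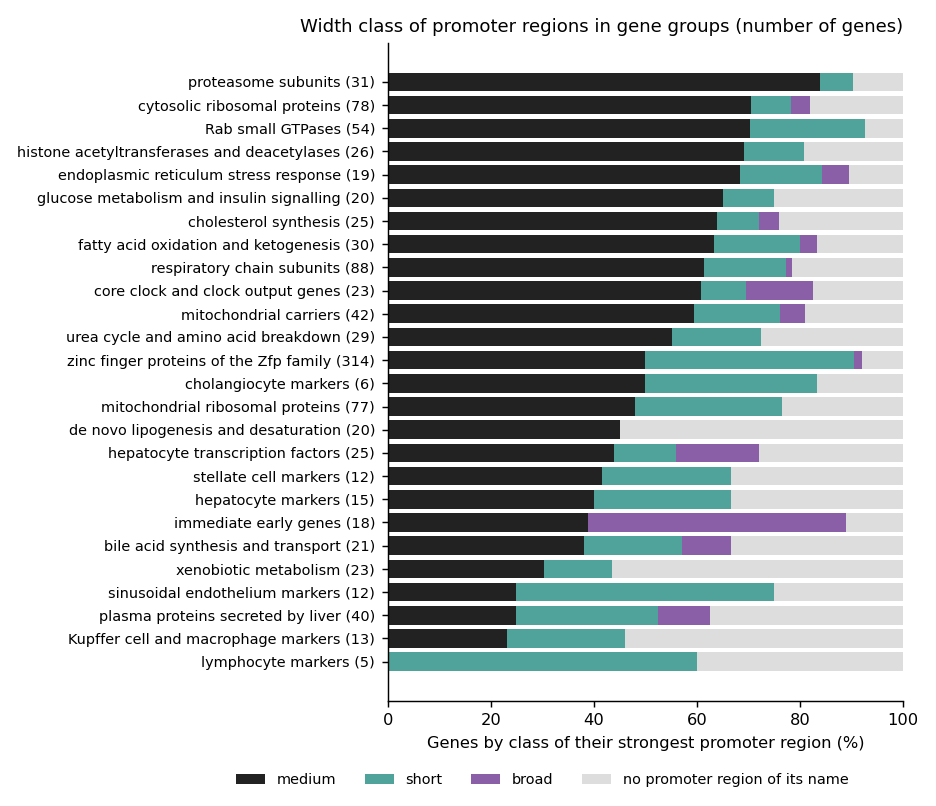
Share of the genes in each group (x axis, percent; number of genes in brackets) whose strongest promoter region was medium (black), short (teal), broad (purple) or absent under that name (grey). Proteasome subunits are at the top with 26 of 31 genes and lymphocyte markers at the bottom with 0 of 5.

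The comparison of HFD with CD asked where the mark differed after the fatty diet. Of the 9169 medium regions, 300 (3.27%) passed an adjusted p of 0.05 in edgeR's quasi-likelihood test, fitted on all regions with Benjamini-Hochberg adjustment over all of them. H3K9ac rose in 132 and fell in 168. Over all 57499 regions the called share was 2.39% (0.835% higher and 1.55% lower in HFD). Over all 9169 regions, called or not, the median size of the change was 0.074 on the log2 scale, and 18 reached at least 1. Changes of the called regions were larger: the smallest called fall was -0.25 at Ubqln1 and the smallest called rise 0.25 at N4bp2l1. In 267 of the 300 the diets did not overlap, while 1429 medium regions (15.6%) did not overlap in all, beside 15.4% of all regions. Leaving out single libraries moved the count to 129 without HFD B, 176 without HFD A, 176 without CD C and 495 without HFD D, and 101 of the 300 passed in all 6 such fits.

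At like counts, the called share of medium regions was below that of broad promoter regions and of regions away from start sites. With a mean count of 500 to under 1000 per library, 3.16% of 3039 medium regions were called. At that count it was 12% of 534 regions away from start sites, 18.2% of 33 broad and 1.6% of 188 short promoter regions. At 1000 counts or more, the shares were 3.5% of 2397 medium and 12.1% of 198 broad regions. For regions away from start sites it was 11.7% of 462. These were set by their middle, and how many of those with high counts include a start was not counted. Within the class the called share was 1.76%, 3.47%, 4.26%, 7.24% and 5.95% from the narrowest to the widest bin. These shares are a description with no test, since regions are not replicates.

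**Figure D3:**
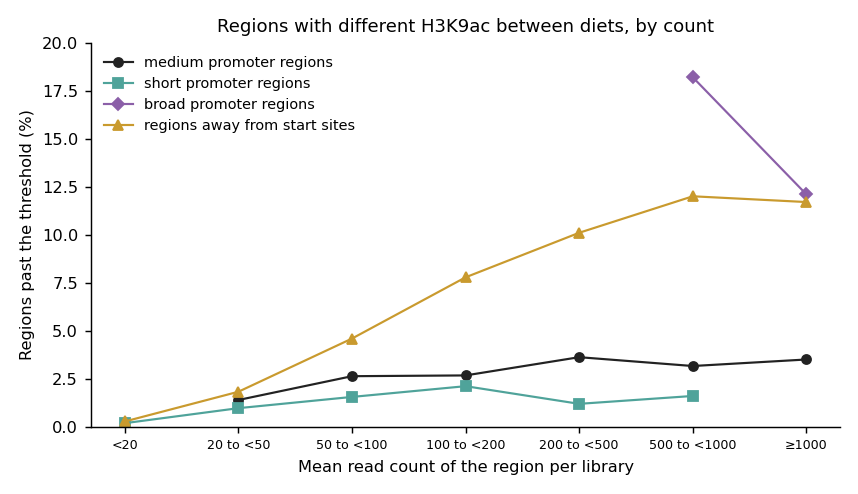
Share of regions past the threshold (y axis, percent) by mean count per library (x axis) for 4 kinds of region; points with fewer than 20 regions are not drawn. Medium promoter regions (black) stay between 1.39% and 3.62%, while regions away from start sites (ochre) reach 12%.

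Clock genes were among the regions with the largest changes. The circadian clock is a feedback loop in which Arntl with Clock or Npas2 drives the Per, Cry and Rev-erb repressors and output factors such as Tef and Hlf. Of 16 medium regions of clock and clock output genes, 6 rose, 4 fell and 6 did not pass. Their median log2 change was 0.11, beside -0.003 over all regions. Of all regions 0.835% rose and 1.55% fell, and of medium regions 1.44% and 1.83%. The gene lists were chosen with earlier results of these data known, so their counts are a description with no test. Falls were at the activators Npas2, Arntl and Clock and at Nfil3, a repressor of clock output genes. Rises were at Per3, Ciart, Hlf, Ccrn4l and both regions of Tef. Leaving out a library, or DESeq2, gave 5 to 7 rises and 3 or 4 falls.

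Npas2, the Clock paralogue, had the largest fall. Its region (chr1:39192274-39194770, mostly upstream of the start) had 128, 109 and 111 CPM in CD A, C and D and 26.6, 27.9 and 32.7 in HFD A, B and D. All HFD libraries lay far below all CD libraries, at a log2 change of -2.01 ± 0.09 (SE; edgeR, adjusted p = 1.32e-25). Arntl, its partner, had 140, 133 and 128 CPM in CD and 66.4, 66.5 and 75 in HFD (chr7:113206479-113208803). That was a log2 change of -0.95 ± 0.08 (adjusted p = 1.1e-13), again with no overlap. Clock itself went from 243, 242 and 259 CPM to 163, 166 and 196 (log2 change -0.50, adjusted p = 2.05e-06).

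Per3, a period gene, had 40.9, 46.2 and 42.9 CPM in CD and 102, 105 and 93.2 in HFD (chr4:151043365-151045289). The log2 change was 1.21 ± 0.09 (adjusted p = 1.25e-16), with every HFD library above every CD library. Ciart, a repressor of Clock-Arntl, had 13.4, 20.7 and 18.8 CPM in CD and 54.1, 55.4 and 36.9 in HFD, a log2 change of 1.47 ± 0.13 (adjusted p = 2.18e-13). Tef, a transcription factor of the clock output, had 2 such regions, both higher. The first (chr15:81801759-81804642) had 35.3, 42.8 and 41.6 CPM in CD and 96.1, 91.1 and 72.5 in HFD. The second, 5501 bases away, had 88.4, 97.3 and 88.1 in CD and 154, 148 and 137 in HFD. Their log2 changes were 1.12 ± 0.09 and 0.68 ± 0.08.

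RNA of these clock genes moved the same way as the mark. Npas2 RNA was 13.8, 14.9, 16.9 and 16.4 CPM in CD A to D and 0.402, 0.271, 1.49 and 1.49 in HFD A to D (log2 change -4.08 ± 0.41, adjusted p = 0.00031). Per3 RNA was 1.37, 1.23, 1.78 and 1.58 CPM in CD and 31.1, 36.3, 12.8 and 17.6 in HFD (log2 change 4.04 ± 0.34). In both genes HFD C and D lay nearer to CD than HFD A and B did. Arntl, with 35.0 to 41.5 CPM in CD, had 4.14 and 3.83 in HFD A and B and 10.7 and 7.48 in C and D, which is the same order. Tef RNA was 25.3 to 34.7 CPM in CD and 117 to 209 in HFD, and that of Ciart 0.107 to 0.425 in CD and 2.22 to 11.5 in HFD. Hlf, a paralogue of Tef, had H3K9ac of 27.2, 29.8 and 26 CPM in CD and 50, 50.9 and 40.3 in HFD (log2 change 0.77 ± 0.11). Its RNA rose by 0.56 (adjusted p = 0.0266), a call lost in 5 of the 8 fits without 1 library.

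Nfil3 passed as lower in both assays, with log2 changes of -0.38 in H3K9ac and -1.72 in RNA. Clock RNA was 70.3 to 108 CPM in CD and 34.0 to 80.5 in HFD, which overlapped (adjusted p = 0.197). Cry1, a repressor, had 119, 126 and 131 CPM of H3K9ac in CD and 127, 126 and 124 in HFD, with overlap and an adjusted p of 0.996. Its RNA fell from 19.6, 30.4, 29.9 and 23.4 CPM in CD A to D to 10.8, 10.4, 13.5 and 8.03 in HFD A to D (log2 change -1.28 ± 0.18, adjusted p = 0.00224). Nr1d2, which encodes Rev-erb beta, had RNA of 25, 37.1, 36.7 and 31.4 CPM in CD and 95.5, 131, 113 and 107 in HFD (log2 change 1.78 ± 0.15). Its region had 98.6, 136 and 110 CPM in CD and 134, 131 and 134 in HFD, which overlapped (log2 change 0.21, adjusted p = 0.248). Ccrn4l (Nocturnin) had a rise of 0.30 in H3K9ac (adjusted p = 0.00905, but 0.236 without HFD A) beside one of 3.40 in RNA.

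**Figure D4:**
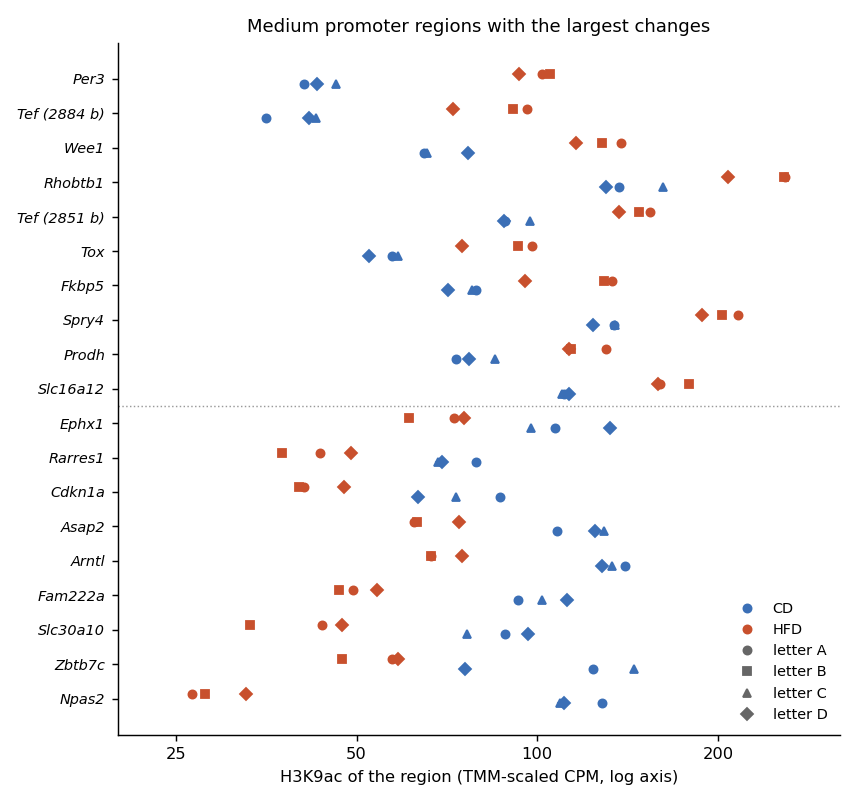
H3K9ac of the 10 medium promoter regions with the largest rise (top) and 9 of the 10 with the largest fall (bottom) among those at or above the median level, whose diets did not overlap; x axis TMM-scaled CPM on a log axis, 1 point per library. Within HFD (red) the D library (diamond) is the closest to CD (blue) in every region drawn.

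Among the other large rises, Wee1, a kinase that holds back mitosis and a known clock output, had 64.8, 65.6 and 76.7 CPM in CD and 138, 128 and 116 in HFD (log2 change 0.88 ± 0.08, adjusted p = 6.73e-12). Rhobtb1 had 137, 162 and 130 in CD and 259, 258 and 208 in HFD (log2 change 0.76 ± 0.08). Its RNA showed no such difference (log2 change -0.05 ± 0.12, adjusted p = 0.893). Fkbp5, a co-chaperone of the glucocorticoid receptor, was alike: H3K9ac went from 79.2, 77.7 and 70.9 CPM to 133, 129 and 95.4 (log2 change 0.65 ± 0.09), while RNA had a log2 change of -0.08 ± 0.18 (adjusted p = 0.885).

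Spry4, an inhibitor of receptor tyrosine kinase signalling, rose by 0.62 in H3K9ac and by 1.37 in RNA on the log2 scale. Prodh, which starts proline breakdown, Tox, an HMG-box factor, and Slc16a12, a monocarboxylate transporter family member, rose by 0.60, 0.66 and 0.58 in H3K9ac. Prodh and Slc16a12 RNA did not pass (adjusted p = 0.057 and 0.0766). Tox RNA did, at 0.0333, but not in 6 of the 8 fits that left out 1 library. The largest rise of any medium region was at Mir802, a microRNA gene, which had 2.14, 2.42 and 2.28 CPM in CD and 16.2, 14.2 and 9.12 in HFD (log2 change 2.53 ± 0.22, adjusted p = 1.1e-13). It was below the level limit for the plotted regions and was named after its value was seen.

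Among the other large falls, Zbtb7c, a BTB zinc finger factor, had 124, 145 and 75.7 CPM in CD and 57.3, 47.2 and 58.5 in HFD, a log2 change of -1.09 ± 0.11, with CD D well below the other CD libraries. Slc30a10, a manganese exporter, had 88.4, 76.5 and 96.5 in CD and 43.8, 33.2 and 47.3 in HFD (log2 change -1.08 ± 0.10). Its RNA did not pass (log2 change -0.59 ± 0.18, adjusted p = 0.0816). Fam222a had 92.9, 102 and 112 CPM in CD and 49.4, 46.7 and 54.0 in HFD (log2 change -1.03 ± 0.09).

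Asap2, an ARF GTPase activator, fell by 0.86 and Cdkn1a, the cell cycle inhibitor p21, by 0.80 on the log2 scale. Rarres1 fell by 0.74 and Ephx1, microsomal epoxide hydrolase, by 0.69. RNA of these 4 genes also fell, by 2.15, 1.84, 1.51 and 1.24. Sox9, a biliary and progenitor factor, had 107, 97.8 and 119 CPM of H3K9ac in CD and 72.6, 69.5 and 74.9 in HFD (log2 change -0.58 ± 0.08, adjusted p = 1.42e-06). Its RNA fell too (log2 change -1.45 ± 0.27). It is 1 of 7 listed cholangiocyte markers. Of the 6 markers measured in RNA, all were lower in HFD, but only Sox9 itself passed. Summed levels of the 6, with Sox9 included, were 58.9 to 70.1 CPM in CD and 36.1 to 61.9 in HFD, and none was at 0. Their part in these falls was not tested.

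RNA was compared between the diets for the genes of these regions. Of 7954 genes with a medium promoter region, 517 (6.5%) passed in RNA, 241 higher and 276 lower, beside 7.27% of all 12334 genes (3.63% higher and 3.64% lower). The share was 7.31% of the 1957 genes whose strongest promoter region was short and 13.0% of the 216 with a broad one. It was 9.5% of the 2222 with none of their name within the distance limit. The count of 517 was 252 when HFD B was left out, 309, 298 and 308 when CD A, CD B or CD C was, 669 when HFD A was, and 848 with DESeq2.

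Among genes at or above the median RNA level of genes with a medium region, without overlap between the diets, the largest RNA rises were at Rgs16, Ccrn4l, Tef, Nr1d2, Tsc22d3 and 1810055G02Rik. Rgs16, a G protein signalling regulator, had 2.27, 0.346, 2.20 and 14.8 CPM in CD and 115, 175, 51.6 and 37.5 in HFD (log2 change 4.28 ± 0.90, adjusted p = 0.0164, lost without CD A or CD C at up to 0.0564). Its H3K9ac rose by 1.25 ± 0.12 on the log2 scale, from 17.0, 16.4 and 22.4 CPM to 50.8, 46.2 and 34.9. Tsc22d3, a glucocorticoid-induced leucine zipper protein, rose by 1.54 in RNA, while its region had a log2 change of 0.09 (adjusted p = 0.781). 1810055G02Rik rose by 1.51 in RNA and 0.43 in H3K9ac.

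With the same limits, the largest RNA falls were at Fabp5, Arntl, Igfbp1, Ppard, Elovl3 and Selenbp2. Fabp5, a fatty acid binding protein, had 70.1, 30.9, 24.4 and 29.7 CPM in CD and 6.12, 5.64, 3.53 and 8.21 in HFD (log2 change -2.72 ± 0.36, adjusted p = 0.00132). Its H3K9ac fell by 0.50 (adjusted p = 0.00223, but up to 0.0698 without CD A, CD C or HFD B). Igfbp1, an insulin-repressed IGF carrier, fell by 2.54 in RNA and 0.47 in H3K9ac. Ppard, a fatty acid receptor, had 36.7, 26.9, 33.2 and 34.8 CPM of RNA in CD and 6.95, 5.91, 5.91 and 6.48 in HFD (log2 change -2.38 ± 0.13). Its region had 89.1, 84.4 and 83.7 CPM in CD and 78.4, 77.0 and 85.7 in HFD, which overlapped (adjusted p = 0.759).

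Elovl3, a fatty acid elongase, also had lower RNA without a passing change in the mark. Its RNA was 801 to 967 CPM in CD and 112 to 278 in HFD (log2 change -2.28 ± 0.24), while its region had 12.1, 11.6 and 8.71 CPM of H3K9ac in CD and 12.7, 10.9 and 7.69 in HFD (log2 change -0.04 ± 0.17, adjusted p = 0.967). Selenbp2 fell by 2.11 in RNA and 1.04 in H3K9ac, the latter with an adjusted p of 0.117 without CD A and with overlap between the diets. Mouse Selenbp1 and Selenbp2 are near-identical, so their reads may be split.

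Mark and RNA changes were set side by side for the 8107 regions with a gene in the RNA table. Of 121 regions whose H3K9ac rose, RNA rose for 47 (38.8%), fell for 1 and did not pass for 73. Of 159 whose H3K9ac fell, RNA fell for 86 (54.1%), rose for 0 and did not pass for 73. Of the 7827 regions whose H3K9ac did not pass, RNA rose for 2.54% and fell for 2.48%. Read from the RNA side, H3K9ac rose at 47 of 246 regions of genes with higher RNA (19.1%) and fell at 86 of 281 with lower RNA (30.6%). At the 7580 regions of genes whose RNA did not pass, it rose at 0.963% and fell at 0.963%. Both assays may rest on the same livers, so the counts are not independent evidence of each other.

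Among the genes past the threshold in both assays, Slc34a2, a sodium-phosphate cotransporter, had 29.2, 18.5 and 28.1 CPM of H3K9ac in CD and 10.2, 10.1 and 11.1 in HFD (log2 change -1.27 ± 0.15). Its RNA was 5.46, 6.45, 4.69 and 5.61 CPM in CD and 0.144, 0.151, 0.122 and 0.395 in HFD (log2 change -4.75 ± 0.31, adjusted p = 3.06e-05). Lrfn3, an adhesion protein, fell by 0.75 in H3K9ac and 1.57 in RNA. 4833411C07Rik fell by 0.62 and 1.38, and Zfp810, a zinc finger protein, by 0.61 and 1.49. Ces1d, a carboxylesterase, was the exception, with higher H3K9ac and lower RNA. Its region had 6.43, 6.17 and 5.84 CPM in CD and 13.2, 13.1 and 6.81 in HFD (log2 change 0.86 ± 0.19, adjusted p = 0.00339, but up to 0.15 without HFD A or HFD B). Its RNA was 862 to 1150 CPM in CD and 230 to 507 in HFD. Ces1 genes lie in a cluster of near-identical copies, so this count is uncertain.

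**Figure D5:**
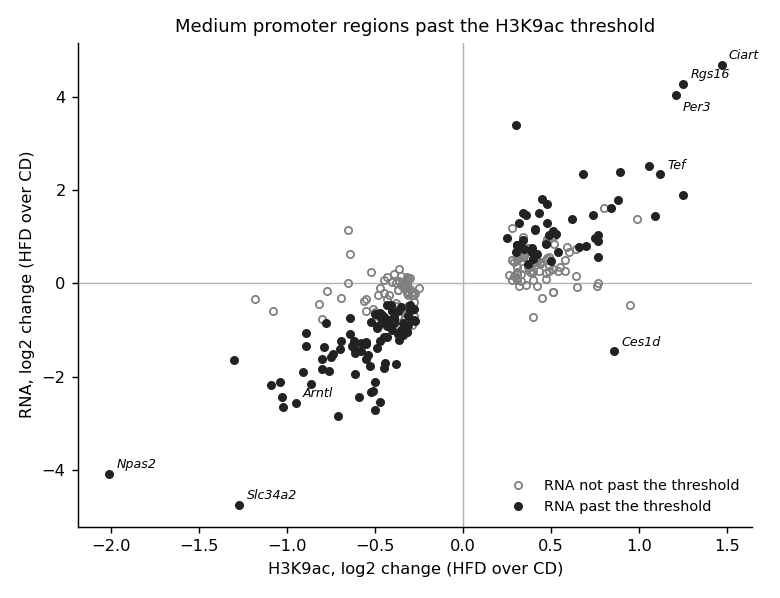
Log2 change (HFD over CD) of H3K9ac (x axis) and of RNA (y axis) for the 280 medium regions past the H3K9ac threshold with a gene in the RNA table; filled points also passed in RNA. Of the filled points, 47 are at the upper right, 86 at the lower left and 1, Ces1d, at the lower right.

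The cholesterol synthesis genes that passed were all lower in HFD, in either assay. Of 16 medium regions of this pathway, 0 rose, 4 fell and 12 did not pass, with a median log2 change of -0.16. Among all regions 1.55% fell, and among medium regions 1.83%. This list, too, was chosen with earlier results known. RNA of 10 of the 16 genes fell and 0 rose (median log2 change -0.72), while 3.64% of all genes fell. Sqle, squalene epoxidase, had 59.3, 59.8 and 44.7 CPM of H3K9ac in CD and 27.5, 26.6 and 33.8 in HFD (log2 change -0.91 ± 0.11, adjusted p = 1.05e-08). Cyp51, a sterol demethylase, had 107, 110 and 113 in CD and 80.1, 72.5 and 81.6 in HFD (log2 change -0.49 ± 0.08). Tm7sf2, a sterol reductase, and Srebf2, the pathway's transcription factor, fell by 0.32 and 0.28 (adjusted p = 0.0269 and 0.0439). Hmgcs1 RNA was 679 to 832 CPM in CD and 174 to 378 in HFD, but its region had 108, 107 and 99.2 CPM against 102, 88.0 and 98.1 (adjusted p = 0.613). Leaving out single libraries gave 2 to 4 falls in H3K9ac (2 without CD A, CD C, HFD A or HFD B, and 2 with DESeq2) and 7 to 12 in RNA (7 without CD A or CD C).

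Xenobiotic metabolism, a list also chosen with earlier results known, had 3 rises and 1 fall among 7 medium regions. Over all regions the shares were 0.835% and 1.55%, and over medium regions 1.44% and 1.83%. Other fits gave 2 to 4 rises and 0 or 1 fall. RNA of 3 of the 7 genes rose and of 1 fell. Sult1a1, a sulfotransferase, had 27.5, 32.8 and 28.8 CPM in CD and 51.1, 55.8 and 45.5 in HFD (log2 change 0.77 ± 0.10). Cyp2a5, a coumarin hydroxylase with a near-identical neighbour, had 3.75, 4.42 and 3.37 CPM in CD and 7.92, 9.21 and 7.58 in HFD (log2 change 1.09 ± 0.20). Por, the P450 reductase, rose by 0.34 in H3K9ac (adjusted p = 0.0277). Its RNA did not pass (log2 change 0.56, adjusted p = 0.261), so the genes that rose were not the same in both assays. Ces2a had a log2 change of -0.55 in H3K9ac (adjusted p = 0.0401, lost in 4 of 6 fits without 1 library and at 0.0727 with DESeq2). Fgf21, a liver hormone of the fed and fasted states, had 13.1, 21.3 and 18.9 CPM in CD and 38.7, 31.5 and 32.7 in HFD (log2 change 0.95 ± 0.13). Its RNA overlapped between the diets (adjusted p = 0.567). Pdk4, a brake on pyruvate use, showed the reverse: RNA fell by 3.06, while its region had 35.0, 40.2 and 37.4 CPM in CD and 30.4, 28.4 and 31.3 in HFD without passing (adjusted p = 0.1).

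The other groups are given beside the share called over all regions, 0.835% higher and 1.55% lower (1.44% and 1.83% of medium regions). In groups of this size a count of 0 or 1 cannot be told from that share. Of the 26 proteasome regions 0 rose and 1 fell, and of the 55 regions of cytosolic ribosomal proteins 0 and 1. None of 37 mitochondrial ribosomal or 54 respiratory chain regions passed, and no gene of these 4 groups with such a region passed in RNA. Zfp genes had 0 rises and 1 fall in 159 regions, Rab genes 0 and 1 in 38, mitochondrial carriers 1 and 0 in 25, and histone-modifying enzymes 0 in 18. No region passed among 7 of immediate early genes, 11 of plasma proteins, 8 of bile acid genes, 9 of lipogenesis genes, or 6, 3 and 3 of hepatocyte, endothelial and macrophage markers. Fatty acid oxidation had 2 rises in 20, hepatocyte transcription factors 1 in 13, stellate cell markers 1 in 5, glucose metabolism 1 fall in 14, and amino acid breakdown 1 rise and 1 fall in 16. RNA of the endoplasmic reticulum stress genes fell for 6 of 13 and rose for 0, but for as few as 1 of 13 without single libraries (CD B, CD C or HFD B), while 1 of their regions, Chac1, passed as higher, with overlap between the diets and an adjusted p of 0.159 with DESeq2.

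Metabolic groups are given for RNA beside the shares over all genes, 3.63% higher and 3.64% lower. RNA rose for 5 of 16 genes of the urea cycle and amino acid breakdown and fell for 0. Mat1a, which makes S-adenosylmethionine, had 1540 to 1880 CPM of RNA in CD and 2820 to 4050 in HFD (log2 change 1.04 ± 0.14, adjusted p = 0.00137). Its region overlapped between the diets, with 10.5, 9 and 9.5 CPM in CD and 9.45, 9.64 and 8.02 in HFD. Of the glucose and insulin genes, 4 of 13 rose and 1 fell in RNA. Of the fatty acid oxidation genes 3 of 20 rose and 2 fell in RNA, and of the lipogenesis genes 1 of 9 rose and 1 fell. Ppara, the fatty acid sensing receptor, rose by 0.99 and Fads2, a desaturase, by 1.27 in RNA, with H3K9ac log2 changes of 0.05 and -0.07 (adjusted p = 0.882 and 0.85). Hadh, a beta-oxidation enzyme, had the mark alone: 42.7, 48.3 and 49.5 CPM in CD and 67.4, 68.5 and 61.6 in HFD (log2 change 0.49 ± 0.09, adjusted p = 0.000209), with RNA at an adjusted p of 0.121.

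Some genes had more than 1 region of this class. Of 158 genes with more than 1 medium region, 12 had at least 1 past the threshold, and in 2 of these both passed. Over all 9169 medium regions, 3.27% passed. That share is per region and not per gene, so the count of genes is not read as high or low. In Lifr, the leukaemia inhibitory factor receptor, the upstream region had 132, 133 and 128 CPM in CD and 138, 144 and 124 in HFD. The region 9892 bases downstream had 39.6, 29.6 and 16.3 in CD and 16.4, 17.4 and 14.8 in HFD (log2 change -0.82 ± 0.16, adjusted p = 0.00041), with CD D within the HFD range. Snx29, a sorting nexin, had a log2 change of -0.01 ± 0.09 at its first and -1.18 ± 0.20 at its second region, where CD D (8.12 CPM) lay far below CD A (20.3) and CD C (18.8). In Arhgef7, a Rac exchange factor, the first region had 104, 96.1 and 115 CPM in CD and 59.9, 72.3 and 81.2 in HFD, and the second 82.8, 83.7 and 78.1 against 90.0, 83.1 and 88.7. The log2 ratio of the second to the first region was higher in HFD by 0.67 in Arhgef7 and lower by 0.43 in Tef, without overlap between the diets in either. These genes were picked because a region had passed, which favours ratios that differ, so the ratios are a description with no test.

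The summed signal of the class was also set against the other promoter widths. The log2 ratio of summed signal in medium over broad promoter regions was 3.84 ± 0.038 (SD, n = 3) in CD and 3.86 ± 0.0367 in HFD, which overlapped, with p = 0.6 in the two-sided exact permutation test. Medium over short was 3.75, 3.75 and 3.77 in CD A, C and D and 3.73, 3.71 and 3.75 in HFD A, B and D. The difference of -0.0258 had p = 0.1 in the exact permutation test, the smallest that 3 against 3 libraries allow.

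The authors' deposited table of the same comparison called 255 of these regions at its own adjusted p (116 higher and 139 lower in HFD). Of them, 253 were among the 300 and had the same direction.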

How the data were processed

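H3K9ac ChIP-seq and RNA-seq of mouse liver were analysed from 2 tables of the whole series. Per the file headers, the authors deposited raw counts per region and per gene, with a log2 fold change and a false discovery rate (adjusted p-value) of their own test. Coordinates are those of mm10, which the submitters' processing notes name. For the aligner, peak caller and counter the name is not given in the sources used here. The region set was common to all libraries, so a width is 1 value per region and not a width in each diet. The 57571 lines held 57499 unique regions. Spreadsheet dates replaced 119 gene names, which were left blank. The RNA table held 12334 genes after 4999 blank lines were dropped. Input and ATAC-seq libraries were not used here.

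Counts were scaled by TMM and tested with edgeR 4.0.16 in R 4.3.3 (filterByExpr, which removed 0 rows, then glmQLFit and glmQLFTest, HFD against CD), with Benjamini-Hochberg adjustment over all regions or all genes and a threshold of 0.05. CPM are counts scaled to a common library size with TMM factors, and RPKM divides them by the authors' gene length. All pairs of libraries within a group differed by more than sampling noise (chi-square per degree of freedom of at least 1.5 in H3K9ac and 32 in RNA). DESeq2 1.42.0, library totals, filters, other limits of width and distance, a replicate block and leaving out each library were alternatives. The scripts were tested on simulated data.

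The members and gene lists were chosen with earlier results of these data known. Regions named in the text were the 10 largest rises and falls among those past the threshold, without overlap between diets and at or above the median CPM of the class, the 6 largest rises and falls in RNA by the same limits, up to 8 genes past the threshold in both assays with the same and 4 with opposite directions, the 6 densest and 3 sparsest regions, the 2 on each side of each limit and up to 3 per list. Mir802, Ciart, Hlf, Clock, Nr1d2, Cry1 and the genes with several regions were added after their values were seen. Some regions that the rule names are not reported here.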

Additional observations from a re-analysis of the deposited data

Results flagged for a closer look

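In 5 of 68 groups of 4 livers, 1 RNA value lay apart from the other 3 by Dixon's criterion at the 95% level, and chance gives about 1 group in 20. Fkbp5 RNA was 23.7 CPM in CD B against 19.2 to 19.7 in the other CD livers. Igfbp1 was 48.3 CPM in CD D against 102 to 116. Rarres1 was 107 CPM in CD A against 55.9 to 59.0. Tsc22d3 was 31.0 CPM in CD B against 54.6 to 58.6. Slc34a2 was 0.395 CPM in HFD D against 0.122 to 0.151 in the other HFD livers. The RNA calls of Igfbp1, Rarres1, Slc34a2 and Tsc22d3 held in each fit that left out 1 liver, and Fkbp5 passed in none.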

How the results depend on the processing

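The count of 300 medium regions with different H3K9ac was 203 with DESeq2, 307 with library totals (144 higher and 163 lower), 227 with a filter at the median level, 213 with a distance of at most 500 bases, 333 at up to 2000 bases and 205 with lengths of 1500 to under 3000 bases. Leaving out 1 library gave 129 to 495. The RNA count of 517 was 848 with DESeq2 (403 higher and 445 lower), 327 with the median filter, 485 with library totals (185 higher and 300 lower, against 241 and 276) and 252 to 669 without 1 library. The cause of the DESeq2 difference was not tested, and the median filter tests fewer genes. The share of counts in medium regions differed by -0.359 to 0.652 points without 1 library. The log2 ratio of medium over broad regions differed by -0.00463 to 0.0372, and that over short regions by -0.0344 to -0.0155. With medians in place of sums the last was -0.0636, the other ratio -0.0176 and the share -0.00208. With the letter as a replicate block, 371 regions (214 higher and 157 lower, against 132 and 168) and 470 genes (207 higher and 263 lower) passed. In H3K9ac, CD C and HFD B have no library of their letter in the other diet. For the mark, that fit thus compared the diets within letters A and D only. Same-lettered libraries correlated at 0.0898 and 0.081 in H3K9ac and at 0.295, 0.0613, 0.235 and -0.222 in RNA, so the letters were not taken as a pairing. In H3K9ac the A and D libraries of each diet correlated best with their own letter in the other diet. RNA differed: CD D, for example, correlated best with HFD A (0.368). Among regions and genes named singly, 2536 values kept their side of the threshold, 113 lost it, 38 gained it and no call changed direction. Of the 72 medium regions with 20 to under 50 counts per library, 1 passed, and no effect of depth was tested.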
